A study of Arabidopsis thaliana with 9 samples.

Results

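The transcripts described here were the ones whose signal differed most between replicate arrays of the same Arabidopsis thaliana line, 135 probe sets of 22746 on the array. A probe set is a group of short oligonucleotide probes that reads 1 transcript or a few similar ones. They were chosen by their replicate spread, measured on log2 of the signal plus 5. The SD among the 3 arrays of each line was pooled over the 3 lines, and the 150 highest were taken from the 10145 probe sets with a mean signal of 50 or more. Of these 150, 15 were set aside, namely 11 probe sets of the low-oxygen response, 3 of plastid genes and 1 of AT4G33380, which left 135. The gene tables name 1 gene for 63 of the 135, several for 4 and none for 68, so whether any of the 68 reads an organelle gene was not determined.

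RNA came from whole plants at growth stage 1.04, grown on agar plates for 17 days, 25 seeds to a plate, at 21 C in days of 16 h light and 8 h dark, and was hybridised to Affymetrix ATH1 arrays. The control line C2S1 is titled wild type, although another label calls it a knock out mutation. T-DNA knock out mutation, meaning that inserted bacterial transfer DNA disrupts a locus, is the label of lines 348 and 409, and the labels name no disrupted gene, so no targeted gene could be examined. Each line had 3 arrays, and the labels do not say whether they came from separate plates or sowings, so the spread may be technical and the number of arrays limits the precision. In RNA of whole plants, a smaller share of a tissue and less transcript per cell cannot be told apart.

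Plants of 1 genotype can differ in transcripts that answer touch, wounding, microbes, oxygen, iron and light, which are switched over a wide range. Several of the families below work in the cell wall or outside the cell. Class III peroxidases are secreted haem enzymes that use hydrogen peroxide to cross-link or loosen wall polymers, and many are made in roots. Secreted defence-type proteins, such as relatives of PR-1, chitinases, glucanases and osmotins, accumulate after attack and also during development. Low-oxygen genes are switched on by transcription factors of ethylene response group VII when oxygen is short, and they help the plant to live without respiration.

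The spread of the members ran from 0.446 to 1.35 log2 units with a median of 0.52, against a median of 0.17 for all 10145 probe sets. Since this spread was the criterion, it is a description and no test belongs to it. The highest array exceeded the lowest by a median of 3.21-fold over the 9 arrays, from 2.16-fold to 16.9-fold, against 1.497-fold for all. Just inside the limit lay 260101_at with an SD of 0.446041 and AT5G55570 with 0.445943, and just outside lay AT4G15680, a glutaredoxin, with 0.445775 and AT5G17820, a class III peroxidase, with 0.445397. The limit therefore fell within a run of almost equal values and divided 1 gene family.

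**Figure D1:**
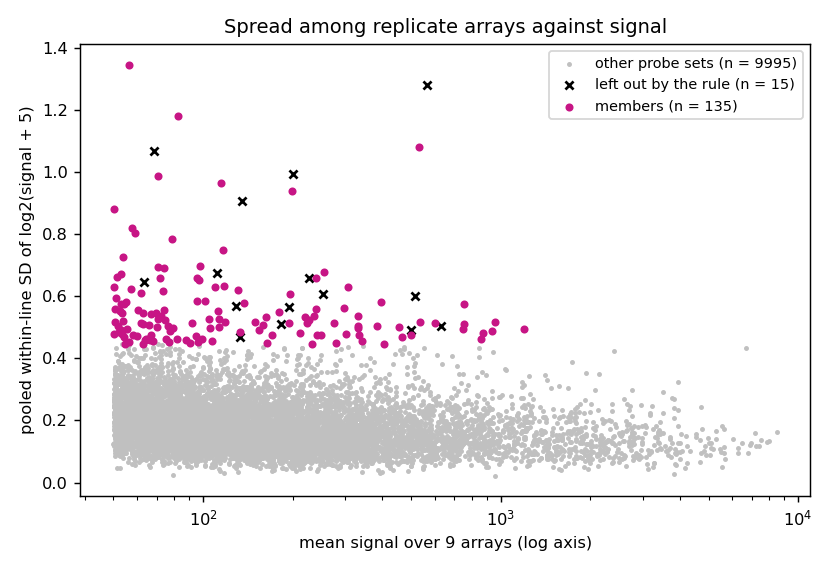
Pooled SD among replicate arrays, in log2 units of signal plus 5, against the mean signal over 9 arrays on a log axis, for 10145 probe sets. The 135 members lie along the top between SDs of 0.446 and 1.35, mostly at signals below 500, and crosses mark the 15 that were set aside.

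The members were dimmer than the rest, with a median signal of 95.5 against 134 and with 53.3% of members under 100 against 35.8% of all 10145 probe sets. A further 11 members had a mean signal of 500 or more, such as AT3G22240 and AT1G53210, a sodium and calcium exchanger of the vacuole. Probe sets that can read several similar transcripts made up 6.67% of members and 3.74% of all. Among those with 1 gene, 19 of 63 members, or 30.2%, lay on chromosome 4, against 14.2% of all such probe sets. These shares were computed after the members were known and are given without a test.

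The median SD within a line was 0.50 log2 units in the control, 0.48 in line 348 and 0.54 in line 409, so no line alone supplied the variable transcripts. For all 10145 probe sets the same medians were 0.13, 0.14 and 0.17. The line with the largest SD was the control for 46 members, line 348 for 41 and line 409 for 48. In 55 members the SD lay above the 90th percentile of all probe sets in all 3 lines, in 57 members in 2 lines and in 23 in 1 line. The summed variance of 56 members lay for more than 2 in 3 in a single line, 18 of them in the control, 15 in line 348 and 23 in line 409.

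The spread was uneven among the arrays. The deviation of an array is the log2 difference from the mean of its own line, and the largest deviation fell on control replicate 3 for 35 members, 32 of them high. It fell on line 409 replicate 1 for 25 members, 20 of them low, on line 348 replicate 3 for 24, 10 of them high, and on line 409 replicate 3 for 21, 13 of them high. The remaining 5 arrays had 2 to 10 each. In the order named, the 35, 25, 24 and 21 members stand beside 1240, 1825, 1213 and 1760 of all 10145 probe sets. Control replicate 3 held 17.9% of the members' summed squared deviations, against 12.9% for all. Line 409 replicate 1 held 15.9% against 15.5%, line 348 replicate 3 12.7% against 11.5%, and line 409 replicate 3 13.8% against 15.5%. Line 409 replicate 1 was the lowest array of its line for 87 members, or 64.4%, against 35.4% of all 10145 probe sets, and line 409 replicate 3 was the highest for 77, or 57.0%, against 36.0%. Control replicate 3 was the highest for 68 members, or 50.4%, against 35.5%. The members were chosen by these deviations, so the shares describe them and test nothing. Without control replicate 3, 6 members had a mean signal under 50, so they were members only through that array.

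Grouping the members by the shape of their deviations, with Ward clustering of profiles scaled to unit length, gave 4 groups, a number chosen after the values were seen. The first, of 52 members, was high on control replicate 3 with a mean deviation of 0.75 log2 units and was low on control replicate 1 at -0.56. The second, of 42, was low on line 409 replicate 1 at -0.67 and on line 348 replicate 3 at -0.49, and was high on line 409 replicate 3 at 0.58. The third, of 24, was high on line 409 replicate 1 at 0.41 and low on control replicate 3 at -0.36 and line 409 replicate 3 at -0.35. The fourth, of 17, was high on line 348 replicate 3 at 0.78 and low on line 348 replicate 2 at -0.49. Since the groups were formed from these deviations, the values describe them and test nothing.

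**Figure D2:**
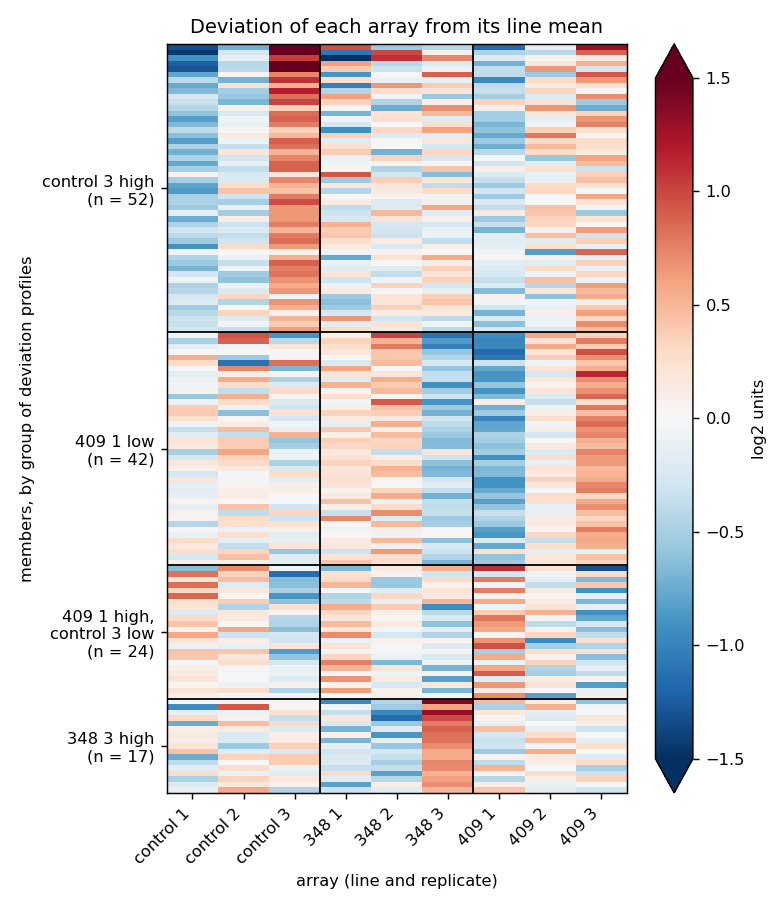
Deviation of each array from its line mean in log2 units, 1 row per member and 1 column per array, with members ordered by group and by spread within a group. Red is above the line mean and blue below it, and the colour scale ends at 1.5 units in either direction. The 52 members of the top group are red on control replicate 3, and the 42 of the second group are blue on line 409 replicate 1.

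AT4G33720 had the largest spread of all members. It encodes a secreted protein of the CAP family, to which the defence marker PR-1 belongs. Its signals were 14.9, 25.1 and 199 on the 3 control arrays, 84.2, 26.3 and 29.3 in line 348, and 11.8, 29.1 and 87.2 in line 409. Each line had 1 high array, 13.4-fold above the lowest in the control, 3.20-fold in line 348 and 7.38-fold in line 409, and the 3 lines overlapped. Without control replicate 3 its mean signal was 38.5, under the limit of 50, so it was a member only through that array.

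The members held 7 genes of secreted defence-type families, a class drawn up after the values were seen: AT4G33720, the chitinase-family gene AT2G43620, the beta-1,3-glucanase-family gene AT4G16260, the osmotin OSM34, the defensin-like gene AT4G22212, the lipid-transfer protein gene AT5G01870 and AT4G22470, a lipid-transfer-type protein gene. All 7 were above the line mean on control replicate 3, by 0.94 log2 units on average, and on line 409 replicate 3, by 0.58, where 82 and 91 of all 135 members were above. None of the 7 was above it on control replicate 1, at -0.67, or line 409 replicate 1, at -0.51, where 48 and 35 of the 135 were above. In line 348 they had no common high array, with 3, 4 and 3 of the 7 above. The class was put together from members taken for these deviations, so its counts describe it and support nothing further.

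AT2G43620 had signals of 96.9, 108 and 360 in the control, 216, 353 and 334 in line 348, and 176, 283 and 230 in line 409. Only control replicate 3 stood apart from its line, and 80.1% of the gene's summed variance lay in the control. AT4G16260 had 64.9, 51.0 and 142 in the control, 145, 88.2 and 61.5 in line 348, and 68.3, 85.3 and 165 in line 409, so that its high array was a different replicate in line 348. OSM34, a relative of the tobacco osmotin that accumulates under salt, had 254, 292 and 592 in the control, 290, 389 and 257 in line 348, and 279, 189 and 436 in line 409. Its highest array was replicate 3 in the control and in line 409 and replicate 2 in line 348.

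AT5G01870 had 107, 159 and 296 in the control, 136, 163 and 198 in line 348, and 133, 208 and 367 in line 409. Here replicate 3 was the highest array of every line and replicate 1 the lowest. Replicate numbers are labels without order, and the titles of line 348 number its arrays 1, 1 and 3, so that a shared number does not by itself mark a shared growth or hybridisation. Its spread remained among the 150 highest under every other processing tried.

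**Figure D3:**
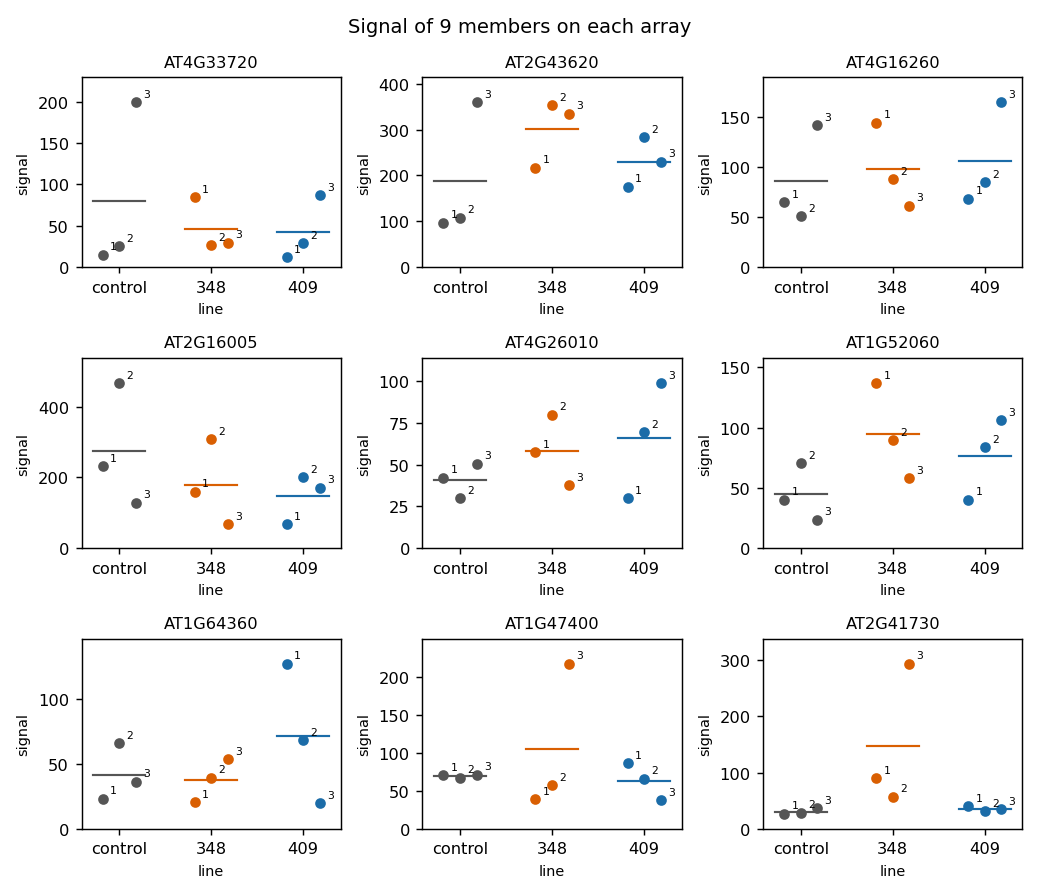
Signal of 9 members on each array, with points numbered by replicate and bars at the line means, on linear axes that start at 0. Control replicate 3 is the highest control array for the defence-type genes AT4G33720, AT2G43620 and AT4G16260, and line 348 replicate 3 is the highest array for AT1G47400 and AT2G41730.

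Lectins, which bind sugars, did not share 1 high array. AT5G03350, a legume-type lectin gene, had signals of 154, 308 and 386 in the control, 88.8, 295 and 244 in line 348, and 205, 291 and 320 in line 409. It was lowest on replicate 1 of every line. AT1G52060, a jacalin-type lectin gene, had 39.9, 70.2 and 23.4 in the control, 137, 89.3 and 57.9 in line 348, and 39.9, 83.4 and 106 in line 409, with its control and 348 arrays ranked differently. AT3G16530, another legume-type lectin gene, ranged from 342 to 987 with its highest array in line 348 replicate 3. Of the 4 lectin-domain members, including the kinase gene AT2G19130, 3 were above the line mean on line 409 replicate 3 and none on line 409 replicate 1. Of all 135 members, 91 and 35 were above it on these arrays.

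Class III peroxidases were followed as a whole family, from a list of 73 loci of which 55 had a probe set with 1 gene and 19 reached a mean signal of 50. Members were 5 of these 19: Prx37, AT4G26010, AT4G11290, AT4G30170 and AT2G18980. All 5 were below the line mean on line 409 replicate 1, by 0.81 log2 units on average, and all 5 were above it on line 409 replicate 3, by 0.63. Of all 135 members, 35 and 91 were above it on these arrays. The 14 other peroxidases with a signal of 50 or more had means of -0.20 and 0.16 on these arrays, with 4 and 11 of the 14 above the line mean. The smaller values of the 14 were in part fixed, because probe sets with large deviations were the ones taken as members. AT4G26010 and AT2G18980 had mean signals of 55.2 and 50.4, and without line 409 replicate 3 both fell under 50. They were members only through that array, so their high values there were in part fixed as well.

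Prx37 had signals of 59.9, 46.9 and 177 in the control, 142, 110 and 107 in line 348, and 61.2, 152.5 and 195 in line 409. It was thus low on 2 control arrays and on line 409 replicate 1, and the spread in line 348 was small, 1.33-fold from lowest to highest. AT4G26010, with the next largest spread of the family, had 42.3, 30.0 and 50.7 in the control, 57.5, 80.1 and 37.6 in line 348, and 30.0, 69.4 and 99.1 in line 409. Its arrays differed by 3.31-fold in line 409 and by 1.69-fold in the control. AT4G30170 had 138, 163 and 165 in the control, 143, 173 and 105 in line 348, and 88.4, 151 and 263 in line 409, again lowest on replicate 1 and highest on replicate 3 of line 409.

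A root marker was also low on line 409 replicate 1. Of 15 root marker genes written down, 3 had a probe set with 1 gene and none was at 0, and their summed signal was 3029 to 3494 in the control, 2956 to 3400 in line 348, and 2364, 3598 and 3673 in line 409. The sum was almost wholly PYK10, a beta-glucosidase of root endoplasmic reticulum bodies, at 2340 on line 409 replicate 1 against 3571 and 3641 on the other arrays of the line. The root hair expansins EXPA7 and EXPA18 were dim on every array, at most 18.3 and 21.98. Of 20 leaf photosynthesis markers, RCA and PSAE-1 were the 2 with a probe set assigned to 1 gene. Their summed signal was 11877, 10595 and 12210 in line 409. The part of tissue shares in the members' spread was not tested.

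AT2G16005 carried the largest spread of the second group, the one low on line 409 replicate 1. It encodes a lipid-recognition protein of the MD-2-related type that takes part in root responses to gravity and salt. Its signals were 232, 467 and 128 in the control, 159, 308 and 66.8 in line 348, and 67.1, 200 and 170 in line 409. Replicate 2 was the highest array of each line, the 3 lines overlapped, and the lowest and highest of the 9 arrays were 6.99-fold apart. The same group held AT1G18980, a germin-like protein gene with 54.3, 86.5 and 237 in line 409 and 80.1 to 120 on the other 6 arrays.

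AT1G22160, whose protein carries a plant-type zinc finger of the FLZ kind, had 66.3, 21.6 and 97.6 in the control, 42.3, 71.2 and 40.9 in line 348, and 31.3, 38.1 and 55.0 in line 409. Control replicate 2 was lowest and control replicate 3 highest of all 9 arrays. Further members of the group were AT5G62340, a pectin methylesterase inhibitor gene with signals from 27.0 to 95.4, AT5G12940, a leucine-rich repeat gene with 36.7 to 125, and AT5G19100, an aspartyl protease family gene with 36.4 to 128. The highest array for each of these was line 409 replicate 3. AT5G62340, with a mean signal of 52.8, fell under 50 without that array, so it was a member only through it.

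**Figure D4:**
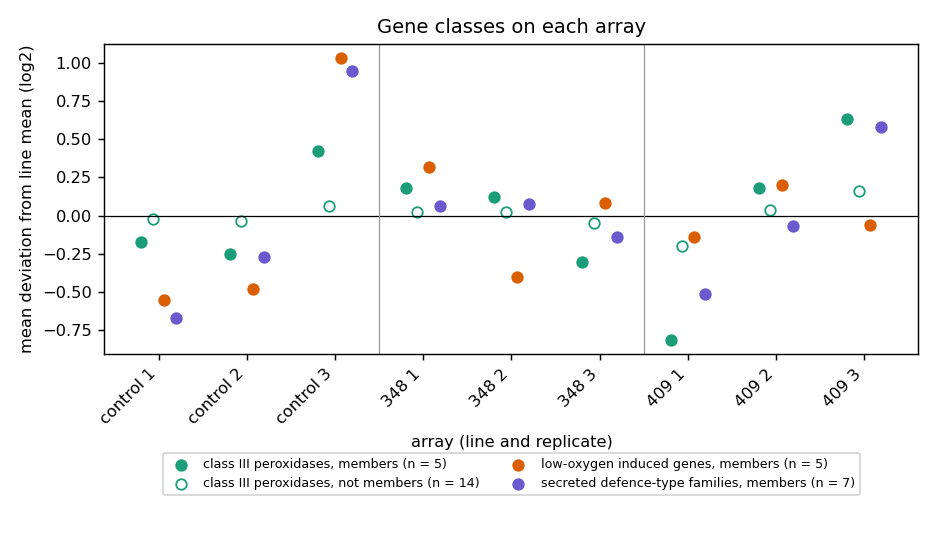
Mean deviation from the line mean in log2 units on each array, for 5 class III peroxidases, 5 low-oxygen induced genes and 7 secreted defence-type genes among the members (filled points), and for 14 class III peroxidases that were not members (open points). The peroxidase members are at -0.81 on line 409 replicate 1, and the low-oxygen and defence-type members are at 1.03 and 0.94 on control replicate 3.

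Low-oxygen genes were still present among the members although the rule had set 11 such probe sets aside. From a list of 21 low-oxygen induced loci, written after the values were seen, 19 had a probe set with 1 gene and 16 reached a signal of 50, and 5 of those were members: AT3G29970, CML38, AT5G26200, AT3G10040 and AT3G03270. All 5 were above the line mean on control replicate 3, by 1.03 log2 units on average, and below it on control replicates 1 and 2, at -0.55 and -0.48. Of all 135 members, 82 were above it on control replicate 3, and 48 and 66 on control replicates 1 and 2. The 6 loci of the list that the rule set aside lay 1.13 above on control replicate 3. The other 5, whose spread was too small to be taken, lay 0.35 above there, in each case with all loci above.

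AT3G29970, a gene of the B12D family of small mitochondrial proteins, had signals of 16.3, 32.0 and 151 in the control, 114, 53.4 and 63.3 in line 348, and 36.6, 72.1 and 94.2 in line 409. Control replicate 1 was the lowest of the 9 arrays and control replicate 3 the highest, 9.31-fold apart. CML38, a calmodulin-like calcium sensor induced by wounding and low oxygen, had 46.4, 35.2 and 126 in the control, 152.1, 85.8 and 128 in line 348, and 199, 180 and 105 in line 409. Its 2 low control arrays lay below all 6 mutant arrays, and the third control array lay among them.

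AT3G10040 encodes HRA1, a trihelix repressor that restrains the low-oxygen response, and had 53.7, 55.2 and 129 in the control, 150, 88.4 and 104 in line 348, and 126, 195 and 114 in line 409. AT3G03270, a universal stress protein gene known as HRU1, had 121, 102 and 268, then 274, 184 and 271, then 190, 216 and 281 in the same order. AT5G26200, a mitochondrial carrier family gene, had 27.9, 31.1 and 81.0, then 82.2, 57.6 and 110, then 91.8, 103 and 68.3. For all 3 genes, as for CML38 and AT3G29970, control replicates 1 and 2 were below every mutant array and control replicate 3 was not.

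**Figure D5:**
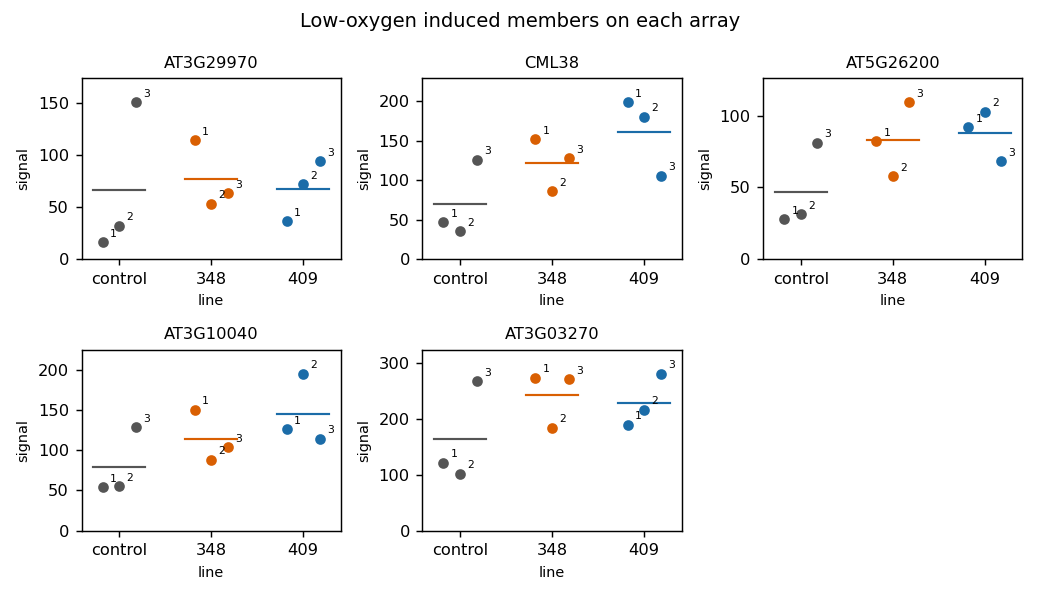
Signal of the 5 low-oxygen induced members on each array, with points numbered by replicate and bars at the line means, on linear axes that start at 0. Control replicate 3 is the highest control array in every panel, and control replicates 1 and 2 lie below all 6 mutant arrays in each.

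Of the 2 genes of the written low-oxygen list with a probe set assigned to 1 gene, AT3G10020 was no member. Its signals were 443 to 702. Of 3 signs of RNA quality, 1 was highest on control replicate 3. The ratio of signal at the 3' end to that at the 5' end was 1.97 for GAPDH on control replicate 3, the highest of a range from 1.58, and 9.86 for actin, inside a range of 6.08 to 11.96. For ubiquitin the highest ratio, 2.17, was on line 409 replicate 3, against 1.37 to 1.72 on the other 8 arrays. The part of RNA quality in the members' spread was not tested.

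Members that were high on line 348 replicate 3 included a gene of iron uptake. AT1G47400 encodes an IRON MAN peptide, a short peptide that promotes iron uptake when iron is scarce. Its signals were 70.0, 67.0 and 71.1 in the control, 38.5, 57.0 and 217 in line 348, and 85.8, 66.0 and 37.6 in line 409. Its control arrays were close together, while line 348 spanned 5.63-fold. Of 24 iron genes written down, only 2 others had a probe set assigned to 1 gene, neither with a mean signal of 50. BHLH101, an iron-deficiency transcription factor, had 7.52, 22.4 and 67.9 in line 348. PYE, a regulator of iron homeostasis, had 31.7, 30.4 and 56.3 there. Both were thus highest on the same array of line 348, and over the 9 arrays their signals ranged from 1.43 to 67.9 and from 21.7 to 56.3.

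AT2G41730, a further member of this group, was read by a probe set that can bind several transcripts. It had signals of 26.7, 28.1 and 36.0 in the control, 90.2, 56.6 and 294 in line 348, and 40.1, 31.1 and 34.9 in line 409. All 3 arrays of line 348 were above all 6 others, and 95.5% of the summed variance lay in line 348. The unnamed 263231_at had 71.2, 59.4 and 44.0, then 177, 67.9 and 316, then 41.5, 33.9 and 45.6 in the same order, and 264042_at had 39.7, 29.9 and 38.6, then 132, 66.6 and 226, then 36.6, 55.4 and 44.0. Both showed the order seen for AT2G41730 in line 348, replicate 3 highest and replicate 2 lowest. The unnamed 247717_at, of slightly larger spread than AT2G41730, varied in the control as well, at 26.4, 110 and 55.7, then 95.7, 66.4 and 153, then 84.0, 174 and 114.

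The group also held AT3G06130, a heavy-metal-binding domain gene, and AT2G24600, an ankyrin repeat gene. AT3G06130 had 74.7, 57.2 and 53.3 in the control, 62.6, 26.6 and 73.8 in line 348, and 79.3, 93.0 and 60.3 in line 409, so its spread in line 348 came from a low replicate 2. AT2G24600 had 24.1, 61.9 and 54.4, then 41.2, 31.3 and 86.4, then 52.3, 58.4 and 62.5 in the same order, with little spread in line 409.

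The group of 24 was high on line 409 replicate 1 on average, with 18 of the 24 above the line mean there. A cut into 6 groups split it into 13 members with a mean of 0.72 on that array and 11 with 0.04. AT1G64360 had signals of 23.0, 65.8 and 36.2 in the control, 20.2, 39.2 and 53.6 in line 348, and 127, 67.9 and 19.8 in line 409. Its highest and its lowest array of all 9 were both in line 409, 6.42-fold apart. LIL3:1, a chloroplast membrane protein needed for chlorophyll synthesis, had 514, 490 and 451, then 683, 543 and 294, then 724, 352 and 438. MSRB6, a methionine sulfoxide reductase that repairs oxidised protein, had 197, 215 and 106, then 148, 180 and 282, then 230, 167 and 94.5, low on replicate 3 of the control and of line 409. The AT1G53210 exchanger, at 1446, 1441 and 595 in the control, was low on control replicate 3 and on line 409 replicate 1, at 823.

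Cell wall members were 4: the xyloglucan-modifying enzyme XTH19, the glucanase GH9B13, the pectin methylesterase ATPMEPCRB and the inhibitor gene AT5G62340. None was above the line mean on control replicate 1, at -0.52 on average, and 3 of 4 were above it on control replicate 3, at 0.41. Of all 135 members, 48 and 82 were above it on these arrays. XTH19 had 46.4, 54.6 and 136 in the control, 62.4, 67.8 and 73.3 in line 348, and 74.5, 74.3 and 108 in line 409. ATPMEPCRB had 75.04, 118 and 216 in the control and 108 to 176 on the mutant arrays. For both, control replicate 3 was the highest of the 9 arrays.

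A pair of neighbouring genes of 1 family shared 1 of their 3 high arrays. AT3G26450 and AT3G26460 encode proteins of the Bet v 1 type that resemble major latex proteins. AT3G26450 had 391, 218 and 113 in the control, 208, 358 and 310 in line 348, and 193, 192 and 168 in line 409. AT3G26460 had 51.1, 67.5 and 45.6, then 47.7, 97.8 and 24.4, then 53.5, 38.9 and 62.3. They shared the high array of line 348, replicate 2. AT3G26460, with a mean signal of 54.3, fell under 50 without that array, so it was a member only through it. In the control the highest array was replicate 1 for AT3G26450 and replicate 2 for AT3G26460. In line 409 it was replicate 1 for AT3G26450 and replicate 3 for AT3G26460. Calcium genes among the members were CML38, AT1G53210 and the calmodulin-like gene AT2G41090, whose signals were 525, 678 and 1059 in the control, 457, 902 and 1143 in line 348, and 682, 704 and 607 in line 409.

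Among members without a gene name, 256766_at had a signal of 198, 346 and 777 in the control, 91.3, 722 and 552 in line 348, and 600, 720 and 769 in line 409. It was 1 of the brightest of the most variable members, and in line 409 its arrays differed by 1.28-fold against 7.91-fold in line 348. Probe set 266385_at, with the second largest spread of the members, had 19.0, 50.0 and 208, then 22.5, 111 and 57.0, then 58.0, 60.9 and 156. Both were highest on replicate 3 of the control and of line 409.

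AT4G14270 and AT1G06510 varied in line 409 and were steady in the other lines. AT4G14270 had 461, 423 and 422 in the control, 425, 459 and 421 in line 348, and 523, 179 and 348 in line 409, so that 98.4% of its summed variance lay in line 409. AT1G06510 had 55.6, 54.6 and 68.7, then 64.8, 54.6 and 47.3, then 72.3, 23.0 and 24.1. AT5G38890, by contrast, was above the 90th percentile of line SD in all 3 lines, at 62.3, 110 and 141 in the control, 130, 85.7 and 89.3 in line 348, and 41.0, 129 and 71.1 in line 409.

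Of 360 genes in 21 lists of rhythm, stress, nutrient, hormone, pigment and tissue pathways, 52 had a probe set with 1 gene, 18 of those reached a mean signal of 50, and 2 were members. These were CML38, from the list of touch and rapid stress genes, and AT3G10040, from the list of low-oxygen genes. The circadian clock, cold, abscisic acid, flavonoid and glucosinolate lists had 1 gene each at that signal, the early auxin and sugar lists 3 each, and none was a member. The heat shock, jasmonate, salicylate, iron, sulfur and detoxification lists had no gene at that signal. The nitrate, phosphate, seed and flower lists had no probe set with 1 gene. Probe sets without a single gene name were not matched to the lists, and 68 members had no gene named. Whether unnamed members belong to these pathways was therefore not determined.

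The members were then compared between lines, since the rule used within-line spread and the mean of all 9 arrays, not the line means. All 135 were among the 14199 probe sets tested with limma, and none passed an adjusted p under 0.05 in line 348 against the control, line 409 against the control, or line 409 against line 348, where 0.0211%, 0.0423% and 0.0141% of all tested probe sets were called. With limma at an unadjusted p under 0.05, 15 members, or 11.1%, passed in line 348, where 5.64% of all did. For line 409 it was 18 members, or 13.3%, against 12.2%, and between the mutant lines 9, or 6.67%, against 7.48%. The high spread for which the members were taken enters each of their errors. Without the arrays of line 348, 12 members had a mean signal under 50. Without those of the control it was 8, and without those of line 409 it was 4. Such members were taken through a line where they are high, so these shares are set in part by the signal limit.

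The changes were larger in the median than those of all tested probe sets, with sizes of 0.25, 0.30 and 0.22 log2 units in the 3 comparisons against 0.12, 0.15 and 0.13 for all. Their direction was mixed: 74 of 135 were higher in line 348 and 70 in line 409 than in the control, and 60 were higher in line 409 than in line 348, against 48%, 47.8% and 49.3% of all tested probe sets. As shares of the members these were 54.8%, 51.9% and 44.4%. A change of 2-fold or more was seen in 4, 5 and 5 members, against 0.155%, 0.254% and 0.0916% of all tested probe sets. The arrays of both groups did not overlap for 7, 6 and 7 members, or 5.19%, 4.44% and 5.19%, where 13.2%, 17.7% and 11.1% of all did not overlap. Means of 3 arrays that scatter widely differ more and separate less often by construction, so these shares follow in part from how the members were chosen. The comparisons with the control share its 3 arrays.

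AT2G41730 had the largest change of a named member in line 348, a log2 change of 1.78 with SE 0.386 and limma adjusted p = 0.256, from 30.3 ± 5.03 to 147 ± 128 signal units (SD, n = 3). It was also higher in line 348 than in line 409, at 35.4 ± 4.50, with a log2 change of -1.58 from line 348 to line 409 and limma adjusted p = 0.471. All 3 arrays of line 348 lay above both other lines. Over the 6 arrays outside line 348 its mean signal was 32.8, so it reached the limit of 50, and with it membership, only through line 348, and its change and lack of overlap are given as a description. The same held for 263231_at at 49.3 and 264042_at at 40.7, and in all 12 members had a mean under 50 outside line 348. In AT2G41730 the SD in line 348 was almost as large as its mean. Without line 348 replicate 2 the change from the control was 2.27 with limma adjusted p = 0.0277, and 263231_at and 264042_at passed as well, 3 members where 0.0563% of all passed. Without the same array 3 unnamed members, 263231_at, 264042_at and 263403_at, were lower in line 409 than in line 348, where 0.0423% of all passed. AT2G41730, 263231_at and 264042_at were members only through their high signal in line 348. The calls of these 3 probe sets therefore describe them and support no line difference. Without replicate 3 of line 348 none of the members passed. The lowest adjusted p of a member in this comparison with all arrays was 0.150, for 264042_at.

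CML38 and AT5G26200 had the largest rises of named members in line 409. CML38 went from 69.2 ± 49.5 signal units in the control to 162 ± 49.5 in line 409 (SD, n = 3). Its log2 change was 1.32 with SE 0.347 and limma adjusted p = 0.175, and AT5G26200 had 0.97 with SE 0.304 and limma adjusted p = 0.245. In both, control replicate 3 overlapped the mutant arrays. Without that array 9 members passed in line 409, all higher, where 0.31% of all tested probe sets passed as higher: CML38 with a log2 change of 1.82 and limma adjusted p = 0.0037, AT5G26200, AT3G10040, AT3G03270, AT2G43620 and 4 unnamed probe sets. In line 348, 6 members passed without it, all higher, against 0.162% of all: CML38, AT5G26200, AT3G03270 and AT2G43620 and 2 unnamed probe sets, with limma adjusted p from 0.00804 to 0.0467. These calls rest on 2 control arrays that were the low ones for each of the named genes.

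The largest falls of named members did not pass either. AT2G16005 had a log2 change of -0.67 in line 348 and -0.84 in line 409, with SE 0.498 and limma adjusted p = 0.911 and 0.529. With 1 array left out it ranged from -1.18 without line 348 replicate 2 to -0.12 without line 348 replicate 3, and in line 409 from -1.28 without control replicate 3 to -0.37 without control replicate 2. AT5G03350 had -0.49 in line 348, and the direction turned without line 348 replicate 1, at 0.02. AT1G06510 had -0.69 in line 409 with limma adjusted p = 0.368, and without line 409 replicate 1 it was -1.17 with limma adjusted p = 0.0283, 1 of 2 members to pass where 0.0845% of all did. With array weights 1 member, 249384_at, passed in line 409, where 0.282% of all did. Between the mutant lines AT2G18690 had -0.73, AT1G64360 0.62 and AT3G06130 0.56, with limma adjusted p of 0.621, 0.797 and 0.675. With 1 array left out these ran from -0.997 to -0.346, from 0.08 to 1.28 and from 0.16 to 0.82, the ends for AT2G18690 and AT1G64360 being the fits without line 409 replicate 1 or 3 and those for AT3G06130 without line 348 replicate 2 or 3.

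The error that limma gives a member is smaller than the member's own replicates would give. The fit draws each variance towards that of probe sets of like signal, and the median SE of a member's change was 0.29 log2 units, against 0.42 from its own arrays alone. The SE of the fit was the smaller for all 135 members, at 0.64 to 0.73 of their own. For all 14199 tested probe sets the median SE was 0.16.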

How the data were processed

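Each deposited value is a linear array signal, an intensity. The submitters' processing notes name MAS5 and GCOS for it, without versions. The 2% trimmed mean of the deposited intensities was 100 on each of the 9 arrays, so the authors' scaling was kept. The 64 Affymetrix control probe sets were left out of all steps but the end ratios. Gene names came from the given probe table, updated through RefSeq gene identifiers. An offset of 5 was added before log2. Probe sets whose signal exceeded the 40th percentile of the array on 3 arrays or more were tested in 1 limma 3.58.1 model (R 4.3.3) of 3 lines with an intensity trend, and p-values were adjusted by Benjamini-Hochberg over all 14199. Descriptions used Python 3.11.15, pandas 2.3.3 and scipy 1.17.1. Members and lists were chosen with earlier results of these data known.

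Named genes were the 12 of highest spread, the 2 with the largest deviation on each array, list members and the 2 largest changes in each direction of each comparison. Genes of the peroxidase, low-oxygen, defence, lectin, cell wall, calcium and latex-protein classes, further group members, probe sets called without 1 array, and markers were named after their values were seen. Alternatives were offsets of 1 and 20, quantile and median scaling, other filters, no trend, array weights, only the 6 arrays compared, a replicate block and each array left out. In simulated data for line 409 against the control, 200 of 14199 probe sets were changed. The fit called 157 changed and 7 unchanged ones at 1 log2 unit, and 198 and 14 at 2. The changed ones were drawn at random from all 14199. The median SE in the data was 0.16 for all and 0.29 for members, so these rates do not describe the members. No sequences were used here.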

Additional observations from a re-analysis of the deposited data

How the results depend on the processing

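With 1 array left out, 0 to 6 members were called in line 348, 0 to 9 in line 409 and 0 to 3 between the mutant lines, and with array weights 1 was called in line 409, 249384_at. AT5G03350 in line 348 ranged from -0.87 to 0.0212 log2 units with 1 array left out, the latter without line 348 replicate 1. The title number as a replicate block left 0 members called in each comparison. Equal title numbers of the control and line 409 deviated together at r = 0.248, -0.0597 and 0.146 over 10145 probe sets. Over the 135 members r was 0.219, 0.0331 and 0.176. Unequal numbers were not compared, so these values do not settle whether the numbers pair arrays. The main fit did not pair arrays by number. Membership moved with the processing: of the 135, 95 to 114 stayed among the 150 highest spreads with 1 array left out, 63 with a mean signal of 100 or more, which is every member that reaches it, and 87 with the median of the 3 line SDs in place of the pooled value. Quantile scaling kept 131, median centring 123, an offset of 1 kept 129 and an offset of 20 kept 111. Members present whichever array was left out were 18, and 7 were present under every alternative, among them AT2G16005, Prx37, AT4G15390 and AT5G01870. Dim signals limit these values, since 53.3% of the members had a mean under 100.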
